A study of Saccharomyces cerevisiae with 6 samples.

Results

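The genes described here are the 10 *S. cerevisiae* genes for PIR cell wall proteins (*PIR1*, *PIR3*, *HSP150* and *CIS3*) and for cell surface sensors of wall integrity (*SLG1*, *WSC2*, *WSC3*, *WSC4*, *MID2* and *MTL1*), out of 6002 nuclear protein-coding genes of the R64 annotation. They were chosen from the measured peaks themselves, since *HSP150* was known to carry a long peak in the mutant and *SLG1* and *WSC3* to carry wild-type peaks, so their peaks are given as a description, with no test. Of the 6 samples of the study, 2 have a list of Nic96 ChIP-seq peaks, both from cells grown at 25 °C and shifted to 37 °C for 15 min. The *tho* cells lack Mft1, a subunit of the THO complex that coats nascent transcripts (mft1::NatMX), and the *wt* cells have it. Both are haploid derivatives of BY4742, an S288C strain, with the alleles his3∆1, leu2∆0, lys2∆0 and ura3∆0, the plasmid pRS313 and a myc-tagged copy of the inner ring nucleoporin Nic96 (Nic96-13myc-KanMX). Each peak is a stretch where the tagged library exceeded the library of an untagged strain of the same kind at 37 °C, and the untagged *tho* strain carries another marker, mft1::KanMX. At 37 °C each strain gave 1 tagged library, so no difference between *tho* and *wt* has a replicate check. The lists give no read counts, and the depth is unknown.

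At a q-value under 0.05 the *tho* list held 608 peaks, of which 37 lay on the mitochondrial chromosome, and the *wt* list 993 peaks, all nuclear. The nuclear peaks had a median width of 449 bp and a median fold enrichment of 1.89 in *tho*, and of 385 bp and 1.76 in *wt*. The fold enrichment compares the tagged with the untagged library at the summit, the highest point of a peak. A gene was given a peak when the peak overlapped it by at least 1 bp or had its summit within 1000 bp of it. A gene with no peak is one where no stretch passed the calling, and its Nic96 signal is unknown. The lists do not show the deletion of *MFT1* itself.

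PIR proteins carry internal repeats and are bound covalently to the glucan of the yeast cell wall. The sensors span the plasma membrane and, when the wall is strained by heat or other stress, activate the GTPase Rho1 through the exchange factors Rom1 and Rom2. Rho1 then acts on protein kinase C (Pkc1), a MAP kinase cascade that ends in Slt2, and the transcription factors Rlm1 and SBF, the complex of Swi4 and Swi6. This cell wall integrity pathway is known to be switched on by a shift to high growth temperature, and many wall genes are among its targets.

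Of the 10 genes, 4 had a *tho* peak (*HSP150*, *CIS3*, *WSC2* and *MID2*) and 4 had a *wt* peak (*HSP150*, *PIR3*, *SLG1* and *WSC3*). Over all genes, 14.3% had a peak by the same rule in *tho* and 19.6% in *wt*. Only *HSP150* had a peak in both lists, against 5.98% of all genes, and *PIR1*, *WSC4* and *MTL1* had none in either. The 4 genes in *tho* shared 3 distinct peaks, because a single peak served *HSP150* and *CIS3*. None of the 10 genes had a further peak among those with a larger q-value. The genes had a median length of 1190 bp (684 to 1818 bp), against 1200 bp for all genes, and a median GC content of 45.4% (41.5 to 48.8%), against 39.7%. All lay at least 48.8 kb from a chromosome end, *WSC4* being the nearest. The summits outside a gene but inside the limit of 1000 bp were those of *CIS3* (749 bp), *WSC2* (680 bp) and *MID2* (629 bp) in *tho*. The peak of *CIS3* also overlapped that gene, so only *WSC2* and *MID2* rested on the limit. The nearest summits outside the limit were 1690 bp from *CIS3* and 2085 bp from *WSC4*, both in *wt*.

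*HSP150*, which codes for a secreted, heat-inducible PIR protein, held the widest of these peaks. The gene lies on chromosome X from 120449 to 121690 of sacCer3 (R64), on the forward strand, and faces *CIS3* (122265 to 122948, reverse strand), which codes for another PIR protein, with 574 bp between their 3′ ends. In *tho*, a peak of 2228 bp ran from 121356 to 123583 at a fold enrichment of 2.47 and −log10 q-value of 22.5. It covered 27.0% of *HSP150* at the 3′ end and 100% of *CIS3*, and reached 635 bp beyond the start of *CIS3*. Of the 571 nuclear *tho* peaks, itself included, 29 were at least as wide and 126 had at least this fold enrichment. In *wt*, a peak of 491 bp ran from 120438 to 120928 at a fold enrichment of 2.24 and −log10 q-value of 6.05, and covered 38.6% of *HSP150* at the 5′ end. Of the 993 *wt* peaks, 289 were at least as wide and 71 had at least this fold enrichment. The peaks of the strains thus lay at opposite ends of the gene. They did not overlap, with 427 bp between them, and their summits were 941 bp apart, at 85.9% of the gene length in *tho* and 10.1% in *wt*. This 1 *tho* peak over 1000 bp overlapped both *HSP150* and *CIS3*. *HSP150* was chosen for it, so the share over all genes is given only as background. In *tho* 2.95% of all genes overlapped a peak over 1000 bp or lay within 1000 bp of its summit. None of the 10 genes was at such a peak in *wt*, against 0.9% of all genes.

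**Figure D1:**
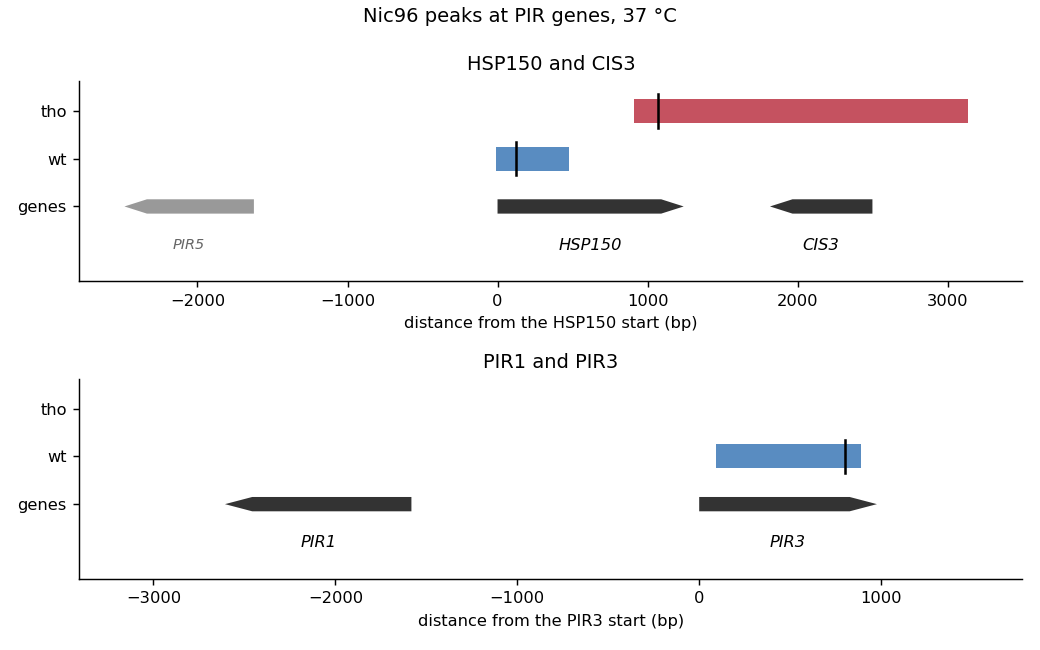
Nic96 peaks (bars, with the summit as a black line) of *tho* (red, top row) and *wt* (blue, middle row) cells along the PIR genes (arrows, 5′ to 3′), with the distance in bp from the start of *HSP150* (upper panel) or *PIR3* (lower panel). The *tho* peak of 2228 bp runs from the 3′ end of *HSP150* across *CIS3*, and the *wt* peaks lie at the 5′ end of *HSP150* and over most of *PIR3*. The only neighbouring gene drawn is *PIR5*.

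*PIR1* (chromosome XI, 141794 to 142819, reverse strand) and *PIR3* (144401 to 145378, forward strand) are divergent neighbours with 1581 bp between their starts, and both code for PIR proteins of the wall. *PIR3* held a *wt* peak of 797 bp, from 144493 to 145289, over 81.5% of its length. The fold enrichment there was 1.78 and the −log10 q-value 2.85. In *tho* the nearest summit was 39.7 kb away from *PIR3* and 37.1 kb away from *PIR1*. The *wt* summit nearest to *PIR1* was the one in *PIR3*, 2386 bp upstream. *CIS3* had no *wt* peak, and the *wt* summit nearest to it, in *HSP150*, was 1690 bp away. *PIR5*, the remaining gene of the family, lies 1623 bp upstream of *HSP150* on the other strand and had no peak in either list.

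The *tho* summit in *HSP150* and the *wt* summit in *PIR3* fell on the same aligned stretch of the PIR coding sequence. With the genes aligned from end to end, they were 1 bp apart. That base lay 174 bp before the last base of each of the 5 genes. The stretch of 61 bases around it is shown for the whole family, in the coding direction and from the R64 genome, with capitals at the bases that differ from *HSP150*.
HSP150: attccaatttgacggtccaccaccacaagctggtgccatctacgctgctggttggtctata
CIS3: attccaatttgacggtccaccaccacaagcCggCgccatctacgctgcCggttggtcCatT
PIR1: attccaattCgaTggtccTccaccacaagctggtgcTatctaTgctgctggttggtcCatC
PIR3: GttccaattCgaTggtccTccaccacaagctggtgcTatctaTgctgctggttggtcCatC
PIR5: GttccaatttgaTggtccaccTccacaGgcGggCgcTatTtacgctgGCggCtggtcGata
*CIS3* differed from *HSP150* at 5 bases, *PIR1* at 7, *PIR3* at 8 and *PIR5* at 12. In *HSP150* the stretch is at chrX:121486-121546, in *PIR3* at chrXI:145174-145234, in *CIS3* at chrX:122409-122469, in *PIR1* at chrXI:141938-141998 and in *PIR5* at chrX:118106-118166. Over the whole coding sequence, 79.2% of the aligned bases of *HSP150* and *PIR3* were the same, 82.5% for *HSP150* and *PIR1*, and 80.7% for *HSP150* and *CIS3*. Of the 50-base words in the genes, 7.38% of those in *HSP150*, 2.52% in *CIS3*, 7.16% in *PIR1* and 10.8% in *PIR3* occur again in the genome. In a window around the aligned position, wider than the 61 bases shown, this was 15.7% for both *HSP150* and *CIS3*, 27.5% for both *PIR1* and *PIR3*, and 0.0% for *PIR5*. In the peaks themselves it was 1.47% for the *tho* peak of *HSP150* and *CIS3*, 1.13% for the *wt* peak of *HSP150* and 9.09% for the *wt* peak of *PIR3*. The part of reads that match more than 1 gene in these peaks was not tested. The position match was found after the summits had been seen, and pairs a *tho* summit with a *wt* summit. The *wt* summit of *HSP150* lay elsewhere, at 10.1% of the gene length. *CIS3*, *PIR1* and *PIR5* had no summit inside the gene in either list.

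The *wt* peaks at the sensor genes lay inside 2 genes of the WSC family, whose products have a cysteine-rich WSC domain outside the cell. *SLG1*, also called *WSC1*, codes for a main sensor of heat and wall stress and lies on chromosome XV from 341278 to 342414, on the reverse strand. It held a *wt* peak of 316 bp, from 341410 to 341725, at a fold enrichment of 1.72 and −log10 q-value of 1.86. *WSC3* (chromosome XV, 114138 to 115808, reverse strand) held a *wt* peak of 277 bp, from 114500 to 114776, at a fold enrichment of 1.53 and −log10 q-value of 1.62. The summits lay at 68.8% of the gene length in *SLG1* and 63.4% in *WSC3*. These were the weakest peaks of the set, with q-values of 0.0137 and 0.0239, and neither passed the stricter threshold of 0.01. Of the 993 *wt* peaks, 578 had at least the fold enrichment of *SLG1* and 941 at least that of *WSC3*. The nearest *tho* summits were 38.1 kb from *SLG1* and 4.27 kb from *WSC3*. The summit in *WSC3* was 0.875 kb from a tRNA gene and 0.766 kb from an annotated replication origin, and that in *SLG1* 0.734 kb from a long terminal repeat.

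The *tho* peaks at the sensor genes lay upstream of *WSC2* and *MID2* and touched neither gene. *WSC2* (chromosome XIV, 105184 to 106695, reverse strand) codes for another WSC sensor. Its *tho* peak of 280 bp ran from 107189 to 107468, with the summit 680 bp before the start of *WSC2* and 312 bp before that of the divergent *POP3*, which codes for a subunit of RNase P. The fold enrichment was 1.79, a value that 10 *tho* peaks share to the last digit, and the −log10 q-value 4.24. *MID2* (chromosome XII, 790676 to 791806, forward strand) codes for a sensor without the WSC domain, which acts in pheromone and wall stress. Its *tho* peak of 277 bp ran from 789875 to 790151, with the summit 629 bp before the start of *MID2* and 368 bp past the end of *CHS5*, which codes for a factor in the export of chitin synthase. *JIP3*, a short gene that overlaps the start of *MID2* on the other strand, ends 622 bp from the summit. The fold enrichment was 2.44 and the −log10 q-value 13.2. Both peaks were narrow for the *tho* list, of which 493 nuclear peaks were at least as wide as that of *WSC2* and 503 at least as wide as that of *MID2*. In *wt* the nearest summits were 18.5 kb from *WSC2* and 2.14 kb from *MID2*. *WSC4*, which codes for a WSC protein also found in the endoplasmic reticulum, was 5142 bp from the nearest *tho* summit and 2085 bp from the nearest *wt* summit. *MTL1*, the paralog of *MID2*, was 20.5 kb from the nearest *tho* summit and 9.35 kb from the nearest *wt* summit.

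**Figure D2:**
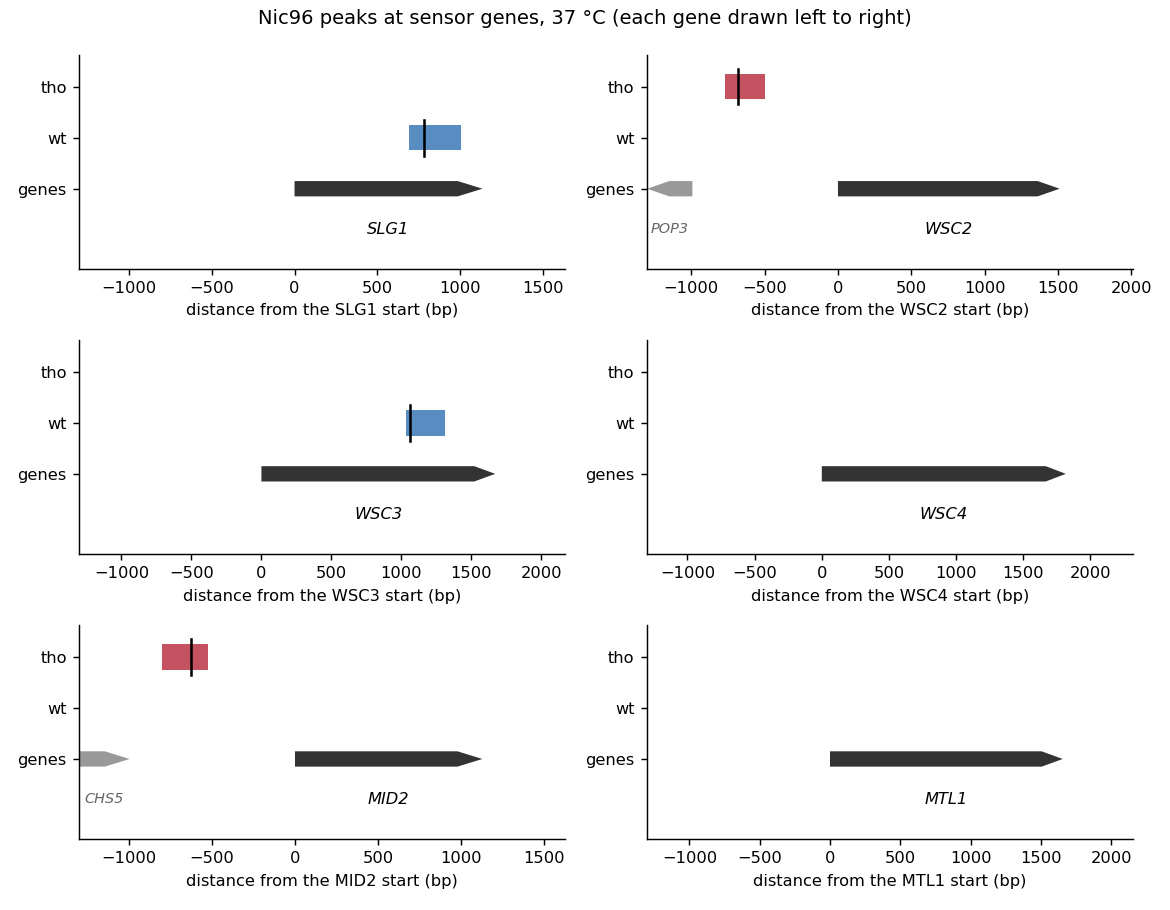
Nic96 peaks (bars, with the summit as a black line) of *tho* (red, top row) and *wt* (blue, middle row) cells at the 6 sensor genes, each turned to read from left to right, with the distance in bp from the gene start. The *tho* peaks lie upstream of *WSC2* and *MID2*, the *wt* peaks inside *SLG1* and *WSC3*, and *WSC4* and *MTL1* have neither. Of the neighbouring genes only *POP3* and *CHS5* are drawn.

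The sequences of the upstream *tho* peaks are shown whole, since they are the peaks of the set that overlap no protein-coding gene. They read in the direction of the gene, from chrXII:789875-790151 (forward strand) for *MID2* and chrXIV:107189-107468 (reverse strand) for *WSC2*. Capitals mark the Swi4-Swi6 cell cycle box (SCB, CGCGAAA on either strand), the site known to be bound by SBF, and in *MID2*, first from the left, the Rlm1 element, the site known to be bound by Rlm1.
MID2: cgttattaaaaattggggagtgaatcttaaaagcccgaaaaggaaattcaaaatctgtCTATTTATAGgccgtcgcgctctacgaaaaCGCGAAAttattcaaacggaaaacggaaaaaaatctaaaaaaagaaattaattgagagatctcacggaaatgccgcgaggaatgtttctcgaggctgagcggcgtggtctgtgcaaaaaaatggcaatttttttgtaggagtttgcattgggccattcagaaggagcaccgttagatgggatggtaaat
WSC2: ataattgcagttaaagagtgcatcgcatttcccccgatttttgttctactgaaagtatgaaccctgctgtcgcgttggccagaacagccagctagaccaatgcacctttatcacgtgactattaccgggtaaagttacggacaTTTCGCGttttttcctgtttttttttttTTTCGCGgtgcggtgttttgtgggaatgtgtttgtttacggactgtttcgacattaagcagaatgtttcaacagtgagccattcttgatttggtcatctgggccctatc
The *MID2* peak held 1 SCB, 81 bp from the summit, and 1 Rlm1 element, 110 bp from it. The *WSC2* peak held 2 SCBs, 53 and 81 bp from the summit, both in the reverse orientation. Of the 300 bp windows around all 571 nuclear *tho* summits, 22 held an SCB (3.85%), against 10 of 993 (1.01%) in *wt* and 1.54% of all such windows of the nuclear genome. Among the 222 *tho* summits upstream of a gene and inside none, 16 held an SCB (7.21%), and 3 an Rlm1 element (1.35%).

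In the 1000 bp before the start codon, *WSC2* and *MID2* were the only genes of the 10 with an SCB, which 7.91% of all genes had there. The Rlm1 element stood before *PIR3*, *HSP150* and *MID2*, against 3.1% of all genes, at 275, 218 and 738 bp from the start. The stress response element bound by Msn2 and Msn4 (STRE, AGGGG) stood before 8 of the 10 genes, all but *WSC2* and *WSC3*, against 55.0% of all genes. A heat shock element written as GAANNTTCNNGAA stood before none of the 10, against 2.65%, and the MCB (ACGCGT) before *CIS3* alone, against 8.51%. All were searched on both strands. A match is a description of the letters and no evidence that a factor was bound.

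The place of the peaks differed between the lists. Peaks overlapped 2 of the 10 genes in *tho* (*HSP150* and *CIS3*), against 7.46% of all genes, and 4 in *wt*, against 13.2%. In *wt* all 4 genes with a peak had the summit inside the gene, where 12.7% of all genes had one. None had a summit upstream, where 4.42% of all genes had one, or downstream, where 4.8% had one. *HSP150*, *SLG1* and *WSC3* were chosen for peaks in these lists, so the counts beside the shares are only a description. In *tho* 1 gene of the 10 had the summit inside (*HSP150*), against 4.7% of all genes, 2 upstream, against 7.18%, and 1 downstream (*CIS3*), against 4.9%. The *wt* list as a whole had its summits inside genes more often than the *tho* list, so the order of these shares is the same as over all genes. The fold enrichments of these peaks were 1.79, 2.44 and 2.47 in *tho*, against a median of 1.89 over its nuclear peaks, and 1.53, 1.72, 1.78 and 2.24 in *wt*, against a median of 1.76. They cannot be compared between the lists, which were called separately.

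**Figure D3:**
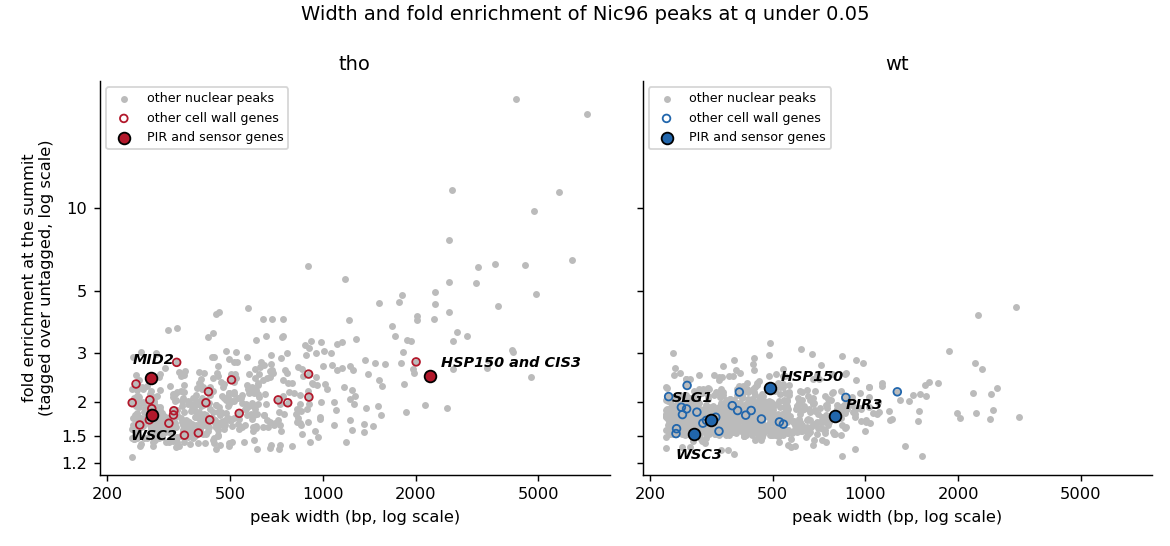
Width (x axis, bp, log scale) and fold enrichment (y axis, log scale) of the nuclear peaks at q under 0.05 in *tho* (left) and *wt* (right) cells. Each point is 1 peak. Filled points are the peaks at the PIR and sensor genes, open points those at the 66 other cell wall genes, and grey points all others. The *tho* peak of *HSP150* and *CIS3* is far wider than those of *MID2* and *WSC2*, and in *wt* *HSP150* has the highest fold enrichment of the 4 genes.

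Other genes of the cell wall were counted by the same rule. They were 66 genes of 5 lists, *PIR5* included. The lists were chosen with earlier results of these data known, so their shares are only a description. Of these, 22 had a *tho* peak (33.3%), against 14.3% of all genes, and 16 had a *wt* peak (24.2%), against 19.6%. The share in *tho* rests on the window of 1000 bp: by overlap only it was 7.58% (5 genes), against 7.46% of all genes. Most of the genes with peaks were enzymes that make or remodel wall glucan and chitin, 13 of 25 in *tho* and 10 of 25 in *wt*. Wall proteins other than PIR proteins had 7 of 20 in *tho* and 4 of 20 in *wt*. The signalling genes downstream of the sensors had 1 of 12 in each list, *RHO1* in *tho* (430 bp, fold enrichment 1.72) and *ROM2* in *wt* (327 bp, fold enrichment 1.76). *PKC1*, *BCK1*, *SLT2*, *RLM1*, *SWI4* and *SWI6* had none. The negative regulators had 1 of 8 in each list, *SAC7* in *tho*, which codes for a GTPase-activating protein of Rho1 (fold enrichment 1.67, summit 645 bp upstream), and *PTP3* in *wt*, which codes for a tyrosine phosphatase of MAP kinases (fold enrichment 1.94).

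The glucan synthase genes, whose products make the main polymer of the wall under Rho1, carried the peaks over 1000 bp among these 66 genes. *GSC2*, the synthase gene known to be induced by heat and the integrity pathway, had in *tho* a peak of 2009 bp in its 3′ part, at a fold enrichment of 2.78, the highest of its list in *tho*, and 2 narrower *tho* peaks of 275 and 395 bp. In *wt* it held a peak of 230 bp with a fold enrichment of 2.09. *FKS1*, the synthase gene used in normal growth, held in *tho* only a peak of 426 bp whose summit lay 594 bp upstream of the gene. In *wt*, *FKS1* held 3 peaks inside the gene, of 542, 864 and 1269 bp, with fold enrichments of 1.66, 2.07 and 2.17. *FKS3*, a related gene, had the highest fold enrichment of the list in *wt*, 2.29. *SPI1*, a stress-induced wall protein gene, had the highest fold enrichment among the other wall proteins in both lists, 2.52 in *tho*, with the summit 347 bp past the gene and 0.294 kb from a tRNA gene, and 2.17 in *wt*, inside the gene and 0.72 kb from a tRNA gene.

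The *tho* summits at the other cell wall genes, from lists chosen with earlier results known, often lay upstream. This held for 15 of the 66 genes (22.7%), against 7.18% of all genes, and 3 had one inside (4.55%), against 4.7%. Among only the genes with a *tho* peak, the upstream share was 68.2%, against 50.2% over all genes. In *wt* 14 of the 66 had a summit inside (21.2%), against 12.7%, and 0 had one upstream, against 4.42%. The upstream summits of these 15 genes, from 14 distinct peaks, stood 315 to 800 bp before the start. Those of *SKN1* and *KRE6* lay in tRNA genes. At *TOS1*, *SAC7*, *EXG1*, *CHS1*, *GAS1*, *SKN1*, *FKS1* and *FKS3* another protein-coding gene lay nearer to the upstream summit. At *SED1*, *SCW4*, *SCW10*, *YGP1* and *KRE6* none did. Together with *MID2* and *WSC2*, these 17 genes were served by 16 distinct *tho* peaks, of which 8 held an SCB within 150 bp of the summit. The SCB was chosen after the peaks were seen. The summits of *UTR2* and *CCW12* lay inside neighbouring genes. Of the other 14 peaks, 7 held an SCB, against 16 of the 222 *tho* summits upstream of a gene and inside none (7.21%), which include them. Whatever their peaks, 25.0% of the 10 and 66 genes together had an SCB in the 1000 bp upstream, against 7.91% of all genes. In *wt* 0 of the 26 distinct peaks at the 76 genes held an SCB, against 1.01% of all *wt* summits.

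**Figure D4:**
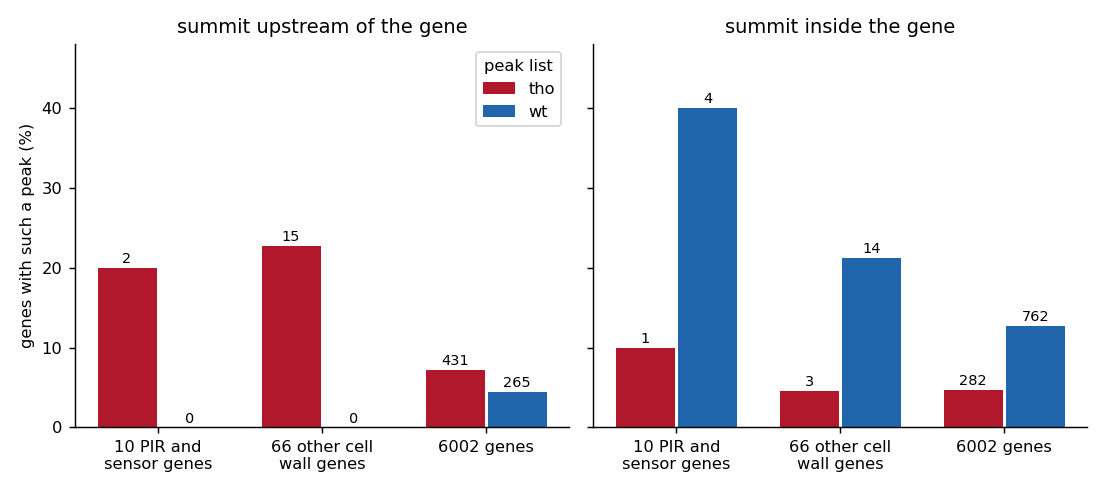
Share of genes (y axis, %) with a summit upstream of the gene (left) or inside it (right) in *tho* (red) and *wt* (blue) cells, for the 10 PIR and sensor genes, the 66 other cell wall genes and all 6002 genes, with the number of genes above each bar. In *tho* 2 of the 10 and 15 of the 66 genes have an upstream summit, and in *wt* none does.

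The SCBs nearest to the *tho* summits are shown for the 6 peaks of the other lists, which were picked for holding an SCB after the match had been seen. Each reads in the direction of the named gene with 20 bases on either side and the SCB in capitals.
TOS1: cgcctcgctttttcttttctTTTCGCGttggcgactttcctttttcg
SCW4: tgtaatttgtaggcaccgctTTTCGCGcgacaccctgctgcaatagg
CCW12: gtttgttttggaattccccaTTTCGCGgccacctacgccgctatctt
FKS1: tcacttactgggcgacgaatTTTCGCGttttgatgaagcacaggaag
SCW10: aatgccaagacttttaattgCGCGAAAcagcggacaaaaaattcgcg
GAS1: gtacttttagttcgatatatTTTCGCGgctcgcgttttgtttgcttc
These are at chrII:565021-565067 (reverse strand), chrVII:1050365-1050411 (reverse), chrXII:370365-370411 (reverse), chrXII:809475-809521 (forward), chrXIII:880608-880654 (reverse) and chrXIII:886626-886672 (forward) of sacCer3 (R64). *CCW12* codes for an abundant wall mannoprotein, *GAS1* for a glucan-remodelling enzyme, *SCW4* and *SCW10* for glucanase-like wall proteins and *TOS1* for a wall-bound protein. The peak of *SCW10* also lies upstream of the divergent *FKS3*. The SCB stood 3 bp from the summit for *SCW10*, 9 bp for *TOS1*, 22 bp for *GAS1*, 25 bp for *CCW12*, 42 bp for *SCW4* and 95 bp for *FKS1*. Over all 22 *tho* summits with an SCB the median was 36 bp (1 to 125 bp), and over the 10 of *wt* 65 bp (13 to 126 bp). No SCB at these summits overlapped another of the motifs searched.

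**Figure D5:**
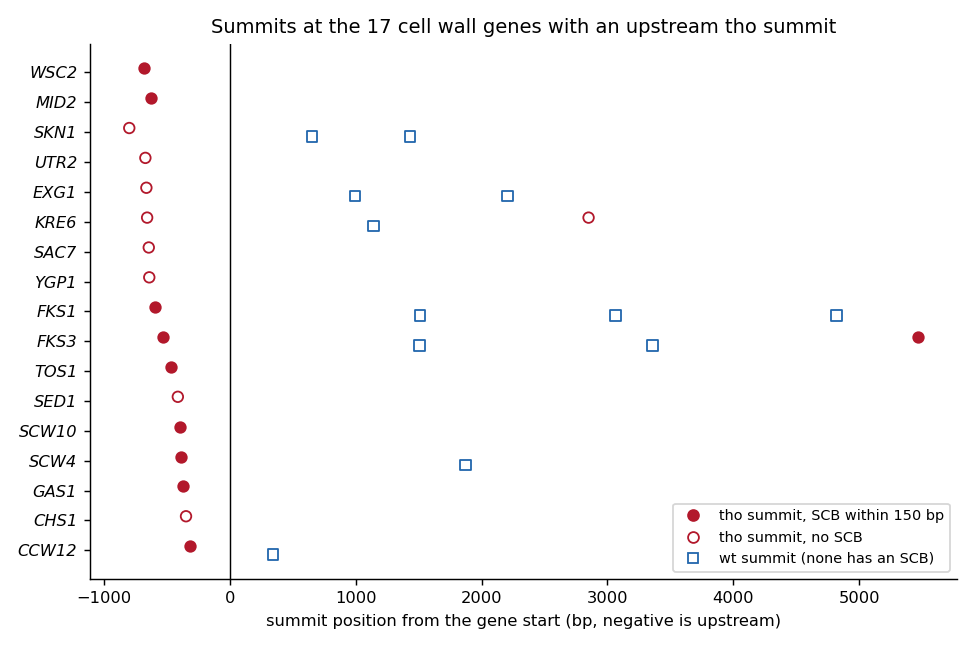
Position of the summits (x axis, bp from the gene start, negative upstream) at the 17 cell wall genes with an upstream *tho* summit. Circles are *tho* summits, filled where an SCB lies within 150 bp, and squares are *wt* summits. The upstream *tho* summits stand 315 to 800 bp before the start, and 9 of the 17 genes have one with an SCB there, *WSC2* and *MID2* included.

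Among the 76 genes, 19 had an SCB in the 1000 bp upstream (25.0%), against 7.91% of all genes. Of these 19, 11 had a *tho* summit upstream (57.9%), against 6 of the 57 without an SCB (10.5%). Among the 11, *SCW10* and *FKS3* share 1 peak. Over all genes with that much sequence before them, the 76 included, the same shares were 53 of 474 (11.2%) and 376 of 5522 (6.81%). In *wt* they were 0 of 19 and 0 of 57 for the 76 genes, and 23 of 474 (4.85%) and 239 of 5522 (4.33%) over all genes. The motif was chosen after the peaks were seen, and the lists with earlier results known, so these shares are only a description. *CWP1*, *CWP2*, *ECM33*, *GAS3*, *SIM1* and *SWI4* had an SCB upstream and no *tho* peak, and *EXG2* and *SUN4* had one with a *tho* summit only downstream. At *SAC7* and *UTR2* the SCB lay outside the 300 bp around the *tho* summit. The genes with an SCB and a *tho* summit upstream share the letters of a motif, and the peaks come from 1 library, so neither the genes nor the peaks are independent replicates.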

How the data were processed

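Nic96-myc ChIP-seq at 37 °C was analysed for *tho* and *wt* cells, 1 library each. The untagged libraries at 37 °C entered only as the controls of the peak calling, and the 25 °C libraries are not analysed here. Per the study's methods, the authors aligned paired-end reads without mismatches to sacCer3 (Bowtie2), dropped duplicates (SAMTools rmdup) and called peaks with MACS2. That each tagged library was set against its untagged counterpart is given by the names of the deposited lists, not by the methods. Tool versions are not given in the sources used here. The deposited values are a fold enrichment, which is a ratio, and the −log10 of the p-value and of the q-value. The deposited score equals 10 times the −log10 p-value, cut to its whole part, and was not used further. Because 56 *tho* and 255 *wt* peaks have a q-value above the 0.05 given in the methods, they were set aside. Starts were changed from the 0-based BED form to 1-based positions, and every peak ended within the R64 chromosomes.

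Peaks were assigned to 6002 nuclear protein-coding genes by overlap of at least 1 bp or a summit within 1000 bp. All 10 genes and all 66 genes of the cell wall lists were found by symbol. Sequences are from the RefSeq R64 genome. The depth is unknown. The genes and lists were chosen with earlier results of these data known. Genes named are the 10, *PIR5*, the neighbours at their peaks and at the widest *GSC2* peak, and list genes with a peak over 1000 bp or the highest fold enrichment of their list. Genes named for an SCB or for the gene nearest to a summit, the tRNA neighbours, signalling genes without peaks and the motifs were chosen after the peaks were seen. Coding sequences were aligned globally with biopython 1.88 (match 2, mismatch -1, gap -4 and -0.5). Scripts used Python 3.11.15, numpy 2.4.6, pandas 2.3.3 and matplotlib 3.10.9, and were tested on simulated peaks. No test compares the strains. Alternatives changed the q-value threshold and the rule for a peak at a gene, and 1 more, which leaves out summits within 200 bp of a tRNA gene, was chosen after seeing the data.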

Additional observations from a re-analysis of the deposited data

How the results depend on the processing

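Of the 10 genes, 4 in *tho* and 4 in *wt* had a peak. The count in *tho* was 2 with overlap only and with a window of 500 bp, in both cases without *WSC2* and *MID2*, and 1 with the summit inside the gene, where *CIS3* was lost as well. The count in *wt* was 2 at a q-value under 0.01, without *SLG1* and *WSC3*. The 22 cell wall genes of *tho* were 5 with overlap only (7.58%, against 7.46% of all genes), 3 with the summit inside (4.55%, against 4.7%) and 12 with a window of 500 bp (18.2%, against 10.6%). Over all genes, the 858 of *tho* were 448 with overlap only and 282 with the summit inside, and the 1176 of *wt* were 779 at a q-value under 0.01 and 762 with the summit inside. All deposited peaks, an overlap of 100 bp and, chosen after seeing the data, leaving out summits within 200 bp of a tRNA gene kept every one of these counts within 1.5 times. No paired analysis was possible because at 37 °C each strain has 1 tagged library. The depth is unknown, and the upstream *tho* summits rest on a single library.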
